A study of Mus musculus with 2 samples.

Results

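The Hox genes encode homeodomain transcription factors that lie in 4 clusters, HoxA to HoxD, on chromosomes 6, 11, 15 and 2 of the mouse. Open chromatin was described at 38 Hox genes of 21887 protein-coding genes, along the 492097 bp between the outer ends of the 4 clusters in the RefSeq annotation of mm10, and in the 100 kb beyond each end. The rule takes genes and regions by name and position and uses no measured value. Of the 77529 control peaks, 129 overlapped a cluster, and of the 61210 peaks of the mutant, 117 did. With the flanks the numbers were 205 and 184.

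Accessible chromatin was mapped with ATAC-seq, an assay built on a transposase that inserts into open DNA, in tdTomato-positive cells sorted by flow cytometry from kidneys at E18.5, late in gestation. 1 library came from WT control kidneys and 1 from Brg1cKO/cKO kidneys, written cKO here, which carry a conditional deletion of Brg1, the motor subunit of BAF chromatin remodellers; each reaction took 50000 cells. The titles and design text name Wnt4-lineage cells for both, those descended from mesenchyme that switches on Wnt4 as it becomes nephron epithelium. The cell type entry of the control library reads only control, and both entries give the library source as transcriptomic although the protocol is ATAC-seq. The Cre driver, the number of animals pooled and the sex of the embryos are not given in the sources.

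Each genotype had 1 library, so replicate spread could not be measured and the genotypes were not tested against each other. Intervals are exact 95% intervals, Poisson for counts and Clopper-Pearson for shares; they cover counting error only, and base pairs covered have none. The deposited lists hold peaks and no read counts, so the depth of each library is unknown. Over the whole lists the cKO library had 21.0% fewer peaks, 15.6% fewer base pairs inside peaks and a median peak width 7.40% larger than the control, and these are the levels against which the Hox values stand.

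Hox genes are arranged in the order in which they act along the body axis. Genes at the 3′ end of a cluster (paralog groups with low numbers) act towards the head, and genes at the 5′ end (high numbers) act towards the tail; all genes of a cluster are read in the same direction. Polycomb complexes and CTCF boundaries divide the clusters into silent and active domains, and retinoic acid and Cdx factors open them in the embryo. In the kidney the paralogs Hoxa11, Hoxc11 and Hoxd11 act with Eya and Pax2 in metanephric mesenchyme, and the Hox10 paralogs act in the stroma.

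Most of the promoter windows available for the members lay wholly inside peaks in both libraries. The share of all promoter windows wholly covered was not taken, so the counts below have no background beside them. The RefSeq table of GRCm38.p6 gave 24 promoter windows, each from 250 bases before to 50 after a start, for 22 of the 38 members. Of these windows 22 lay wholly inside peaks in the control and the same number in the cKO library. The exceptions were Hoxb8, a regulator of myeloid progenitors, with 205 of 300 bp covered in control and 236 in cKO, and Hoxb1, which patterns the hindbrain, with 221 and 257 bp. Their windows are printed 5′ to 3′ as RefSeq gives them, with the bases outside control peaks in capitals (95 in Hoxb8 and 79 in Hoxb1).
Hoxb8, chr11:96281655-96281954, plus strand: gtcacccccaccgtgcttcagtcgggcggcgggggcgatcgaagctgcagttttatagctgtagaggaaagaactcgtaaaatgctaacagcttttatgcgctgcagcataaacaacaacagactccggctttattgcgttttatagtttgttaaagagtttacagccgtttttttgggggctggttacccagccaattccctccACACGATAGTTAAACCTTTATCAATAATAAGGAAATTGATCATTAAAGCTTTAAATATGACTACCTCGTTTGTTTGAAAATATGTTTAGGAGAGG
Hoxb1, chr11:96365508-96365807, plus strand: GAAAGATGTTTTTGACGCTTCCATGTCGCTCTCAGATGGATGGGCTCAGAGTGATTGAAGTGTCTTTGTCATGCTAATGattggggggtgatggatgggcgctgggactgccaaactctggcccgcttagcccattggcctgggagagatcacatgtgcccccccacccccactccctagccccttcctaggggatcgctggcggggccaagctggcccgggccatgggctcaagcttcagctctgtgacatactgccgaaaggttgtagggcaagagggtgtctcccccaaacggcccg

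The Hox11 windows are shown because these paralogs are the ones the kidney is known to need. No promoter window was available for Hoxc11. Both Hoxd11 starts and the Hoxa11 start were wholly covered in control and in cKO. In these lines the capitals mark CG dinucleotides, the sites of DNA methylation.
Hoxa11, chr6:52245761-52246060, minus strand: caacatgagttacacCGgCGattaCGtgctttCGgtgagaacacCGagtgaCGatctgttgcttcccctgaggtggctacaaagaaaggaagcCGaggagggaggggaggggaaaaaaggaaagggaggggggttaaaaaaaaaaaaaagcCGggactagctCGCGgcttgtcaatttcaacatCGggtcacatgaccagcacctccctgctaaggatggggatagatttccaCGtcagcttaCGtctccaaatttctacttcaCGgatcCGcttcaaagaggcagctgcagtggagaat
Hoxd11, chr2:74679308-74679607, plus strand: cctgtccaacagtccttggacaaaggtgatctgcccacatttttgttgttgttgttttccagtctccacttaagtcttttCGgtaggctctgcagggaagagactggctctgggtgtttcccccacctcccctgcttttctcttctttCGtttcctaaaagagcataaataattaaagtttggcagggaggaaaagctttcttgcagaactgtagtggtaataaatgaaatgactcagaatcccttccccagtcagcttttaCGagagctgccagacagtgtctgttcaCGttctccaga
Hoxd11, chr2:74682073-74682372, plus strand: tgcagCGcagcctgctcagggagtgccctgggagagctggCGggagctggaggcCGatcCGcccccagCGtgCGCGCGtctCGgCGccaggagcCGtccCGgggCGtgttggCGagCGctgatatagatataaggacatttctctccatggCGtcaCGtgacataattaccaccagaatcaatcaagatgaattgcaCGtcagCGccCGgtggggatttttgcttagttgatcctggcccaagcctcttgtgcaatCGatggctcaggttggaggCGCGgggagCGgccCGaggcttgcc

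The Hoxa11 window held 15 CG dinucleotides and the Hoxd11 windows 4 and 25. Full coverage was thus seen at both CG-poor and CG-rich Hox starts. Over the 24 Hox windows the median was 14.5 (4 to 45), and over all 32851 promoter windows of the table, from 27025 genes, it was 7 (0 to 67). Searched on both strands, TGATTNAT, the letters of a site for Pbx and Hox dimers, was in 2 of the 24 Hox windows, Hoxd11 and Hoxa2, and in 3.22% of all windows. TTTATNG, the letters of a site for posterior Hox proteins, was in Hoxd4 and Hoxb8 and in 10.9% of all windows. These matches describe letters only.

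Along the 4 clusters together, more sequence lay inside peaks in the cKO than in the control library, against the direction of the whole lists. Control peaks covered 290070 bp of the clusters (58.9%), and cKO peaks 318711 bp (64.8%), a gain of 9.87%. The gain was present in each of the 4 clusters. The number of peaks fell, from 129 (107.7 to 153.3) to 117 (96.8 to 140.2), by 9.30%, while the median width went from 1855 to 2292 bp. The intervals of the peak counts overlapped, and the fall in number was not tested. When only the 61210 control peaks of lowest p were kept, as many as the cKO list has, the count rose by 10.4%. The median width then fell by 2.70% and the covered base pairs rose by 16.3%. Dropping control peaks alone can only raise the gain in covered sequence, so its direction in this setting was fixed in advance.

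Wide peaks made up more of the clusters than of the whole lists. Peaks of 2000 bp or more made up 63 of 129 Hox peaks in control (48.8%) and 67 of 117 in cKO (57.3%), where they made up 11.0% and 12.8% of the whole lists. Peaks of 4000 bp or more numbered 19 (14.7%) and 31 (26.5%), against 1.07% and 1.40% of all peaks. The widest Hox peak measured 9355 bp in control and 9037 bp in cKO. The Hox peaks were also strong within their own lists, with a median percentile by the peak caller's p of 71.4 in control and 69.0 in cKO.

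**Figure D1:**
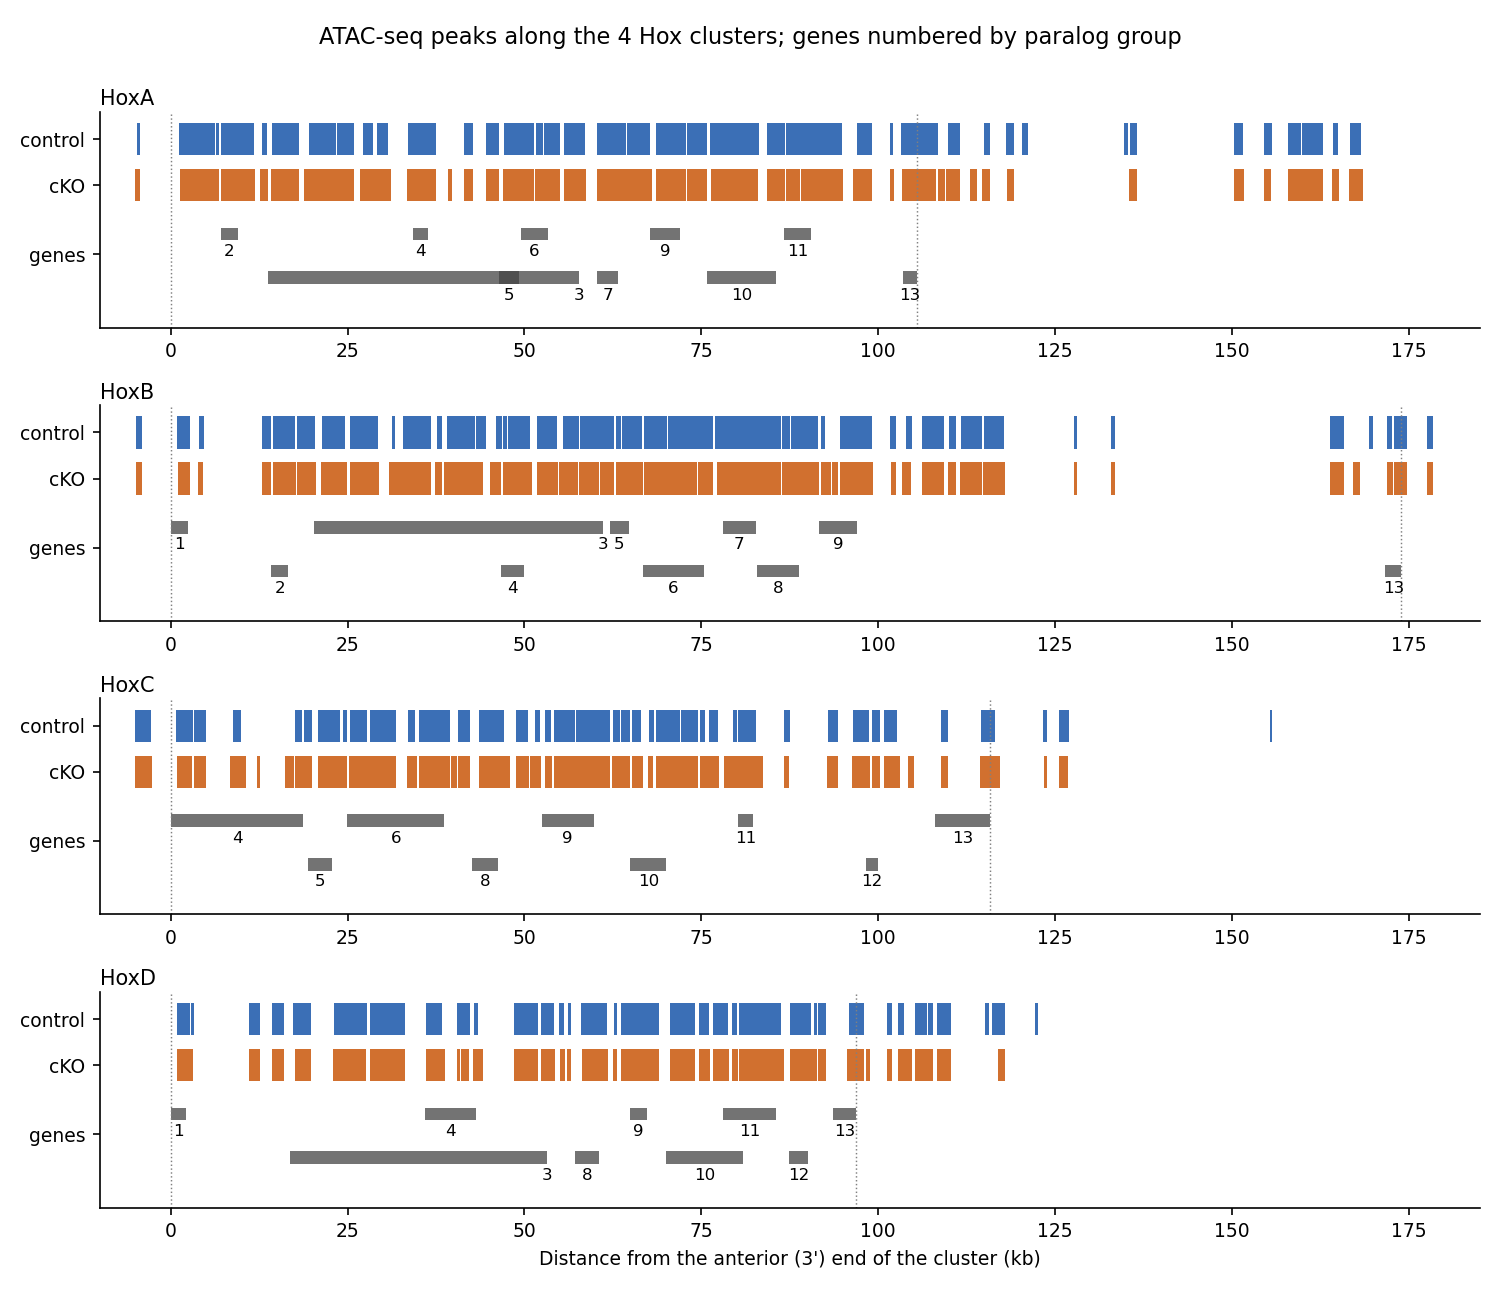
Peaks of the control library (blue) and the cKO library (orange) along the 4 clusters, drawn from the anterior (3′) end at 0, with genes as grey bars numbered by paralog group; the x axis gives the distance in kb and dotted lines mark the cluster ends. Both libraries cover most of each cluster (58.9% in control and 64.8% in cKO over all 4), and gaps between neighbouring control peaks are filled at several places in the cKO library.

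HoxA (chr6:52155367-52260880, 105514 bp) was the most covered cluster in both libraries. It held 26 peaks over 78172 bp in control (74.1%) and 24 peaks over 82957 bp in cKO (78.6%), a gain of 6.12%. The median width was 2946 bp in control and 3729 bp in cKO. HoxD (chr2:74668225-74765142, 96918 bp) changed least, with 27 and 25 peaks over 57046 and 60052 bp (58.9% and 62.0%), a gain of 5.27%, and median widths of 1850 and 2170 bp.

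HoxC (chr15:102921131-103036856, 115726 bp) gained most. Its 36 control peaks covered 63755 bp (55.1%) and its 32 cKO peaks 75905 bp (65.6%), a gain of 19.1%, with median widths of 1388 and 1726 bp. HoxB (chr11:96194316-96368254, 173939 bp) had 40 and 36 peaks over 91097 and 99797 bp (52.4% and 57.4%), a gain of 9.55%, with median widths of 1890 and 2414 bp. HoxC thus carried 12150 of the 28641 bp gained over the 4 clusters. Of the 12816 bp inside HoxC cKO peaks alone, 3846 bp lay in peaks without a counterpart in the control list. Without HoxC the gain over the other clusters was 7.29%.

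Read gene by gene, the gain was broad and mostly small. Each gene was given a window of its annotated span with 1000 bp on both sides. From control to cKO, 29 of the 38 members had more of the window covered, 7 had less and 2 had the same, while 30.4% of the 16188 protein-coding gene windows with a control peak had more and 68.8% had less. The fold of covered base pairs, cKO over control, had a median of 1.05 over the members (0.976 to 1.45) and of 0.945 over all these genes. Among windows already covered by at least 50% in control, which is the usual state of a Hox gene, 25 of 33 members and 53.2% of 918 other genes had more in cKO, and the median folds were 1.04 and 1.00.

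Windows of neighbouring Hox genes overlap and are not independent. The long annotated spans of Hoxa3, Hoxb3 and Hoxd3 enclose other members. When each cluster was instead divided into stretches between neighbouring 3′ ends, so that no base was counted more than once, 31 members gained, 5 lost and 2 were equal.

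**Figure D2:**
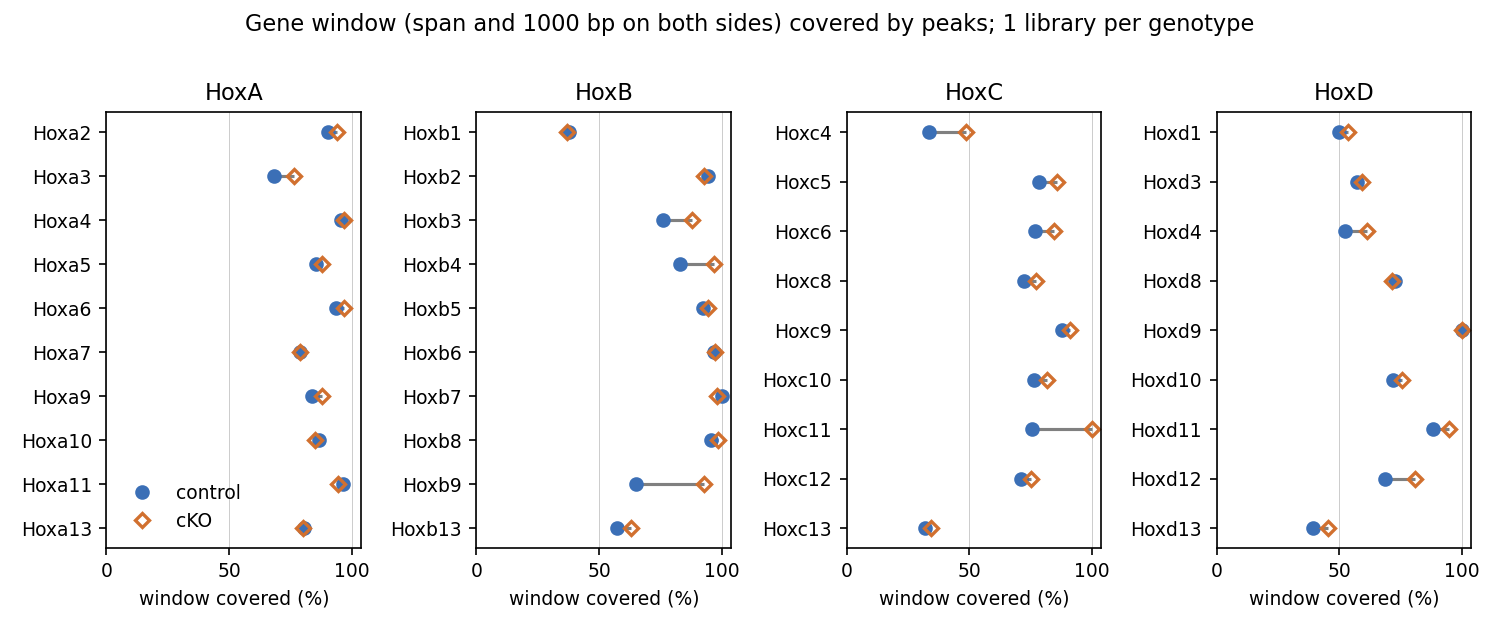
Share of each Hox gene's window (annotated span and 1000 bp on both sides) inside peaks, in percent, for the control library (blue circles) and the cKO library (orange diamonds), with genes ordered from anterior at the top to posterior in each cluster. The 9 HoxC genes all lie further right in cKO, and the longest lines are those of Hoxb9, Hoxc11 and Hoxc4.

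All 38 members had a peak within 1000 bp of an annotated end in both libraries, where 67.6% of all protein-coding genes had one in control and 66.2% in cKO. The 5′ end had a peak at all 38 in both. The 3′ end had one at 38 in control and 37 in cKO, and Hoxb1 was the gene without. No Hox gene with a peak at its 5′ end in control lacked one in cKO.

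The anterior paralogs, groups 1 to 4, pattern the hindbrain, the pharyngeal arches and the neck. Their windows were covered by 63.5% in control and 71.2% in cKO, a gain of 12.1% in base pairs over 11 members, 9 of which gained. Hoxa3, needed for thymus and parathyroid, had 31462 bp covered in control and 35108 bp in cKO (68.4% and 76.3% of its window). Hoxb3 went from 32594 to 37569 bp (76.1% and 87.7%), the largest gain in base pairs of any member. Hoxd3, which acts in the vertebrae of the neck, went from 21987 to 22724 bp (57.4% and 59.4%). All 3 windows of this group gained, whereas in the stretches between 3′ ends Hoxd3 fell by 99 bp.

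Group 4 gained in each of its 4 members. Hoxc4 had the largest fold of all members: 6999 bp were covered in control and 10122 bp in cKO, 33.7% and 48.8% of the window, a fold of 1.45. Part of this gain lay in weak cKO peaks without a counterpart, of 1226 and 492 bp, at percentiles 0.55 and 12.5 by p. Hoxb4, studied for its role in blood stem cells, went from 4459 to 5214 bp (83.0% and 97.1%). Hoxd4 went from 4796 to 5644 bp (52.2% and 61.5%), and Hoxa4 from 3850 to 3904 bp.

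In groups 1 and 2 the differences were small. Hoxa2, which sets the identity of the second pharyngeal arch, went from 3996 to 4155 bp. Hoxb2, a hindbrain gene, fell by 65 bp from 4144 to 4079 bp, and Hoxb1 fell by 41 bp from 1710 to 1669 bp, which was 37.9% and 37.0% of its window. Hoxd1 went from 2080 to 2239 bp (50.0% and 53.8%). In the stretches between 3′ ends Hoxb2 rose by 64 bp and Hoxa2 by 317 bp, so both members of group 2 were higher there, while Hoxb1 fell by 75 bp. Hoxb1 and Hoxd1 were among the least covered members in both libraries.

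The middle paralogs, groups 5 to 8, act in the trunk and were already the most covered band, at 85.2% in control and 88.4% in cKO, a gain of 3.76%. Of 11 members 8 gained. The size of the middle gain moved with the settings, from 1.36% with peaks closer than 500 bp merged to 10.6% with the more significant 50% of each list. Hoxa5, which acts in lung and axial patterning, went from 4132 to 4255 bp, Hoxb5 from 4255 to 4361 bp and Hoxc5 from 4267 to 4648 bp. Group 5 and group 6 gained in all 3 members each: Hoxa6 went from 5435 to 5636 bp, Hoxb6 from 10435 to 10477 bp, and Hoxc6, active at forelimb level, from 12036 to 13228 bp (76.9% and 84.5%). In its stretch between 3′ ends Hoxb6 fell by 280 bp.

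Neither window of group 7 gained. Hoxa7 had 3919 bp covered in both libraries (79.2%), and rose by 133 bp in its stretch between 3′ ends. Hoxb7 lay wholly inside peaks in control, with 6560 bp, and had 6426 bp (98.0%) in cKO. In group 8, Hoxb8 went from 7580 to 7823 bp and Hoxc8, which acts at brachial and thoracic levels, from 4158 to 4429 bp, while Hoxd8 fell by 50 bp from 3864 to 3814 bp. In its stretch between 3′ ends Hoxd8 rose by 270 bp.

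The posterior paralogs, groups 9 to 13, act in the lower trunk, the limbs and the urogenital tract. Their windows were covered by 73.3% in control and 78.9% in cKO, a gain of 7.57%, and 12 of 16 members gained; with as many control as cKO peaks kept the gain was 14.3%. The gain came from HoxB, HoxC and HoxD: the posterior windows of HoxA stood at 23349 bp in control and 23332 bp in cKO. In HoxA the anterior windows, groups 1 to 4, went from 70.3% to 77.9%. Counted in stretches between neighbouring 3′ ends, the posterior part of HoxA had a gain of 3.33%.

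Group 9 held the largest posterior gain. Hoxb9 went from 4725 to 6733 bp, from 65.0% to 92.7% of its window, a fold of 1.42. Part of this gain was a weak cKO peak without a counterpart, of 845 bp and at percentile 14.6 by p. Hoxa9, studied in blood progenitors, went from 5251 to 5525 bp, and Hoxc9, which specifies thoracic motor neurons, from 8267 to 8567 bp. Hoxd9 lay wholly inside 1 peak in both libraries, with 4446 bp. In group 10, Hoxa10, which acts in the uterus and kidney stroma, fell by 168 bp from 10101 to 9933 bp, whereas Hoxc10 went from 5426 to 5823 bp and Hoxd10 from 9263 to 9699 bp.

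The 3 Hox11 paralogs of the kidney were all widely covered. Hoxa11 fell by 101 bp from 5499 to 5398 bp (96.4% and 94.6%). Hoxc11 went from 3162 to 4176 bp, from 75.7% to 100% of its window, a fold of 1.32. Hoxd11 went from 8347 to 8964 bp (88.2% and 94.8%). In the cKO library all 3 windows were covered by at least 94.6%. The direction of Hoxa11 depended on the division: in the stretches between neighbouring 3′ ends it rose by 895 bp, Hoxc11 by 981 bp and Hoxd11 by 714 bp, so that all 3 were higher in cKO there.

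By median, the most posterior groups were less covered in control than the members as a whole (77.8%), at 69.9% in group 12 and 48.3% in group 13. Group 1 stood at 43.9%. Hoxc12 went from 2695 to 2844 bp and Hoxd12 from 3216 to 3798 bp (68.5% and 80.9%). In group 13, Hoxa13, needed for digits and the genital tract, fell by 22 bp from 3248 to 3226 bp. Its share, 80.6% in control and 80.1% in cKO, was the highest of the group. Hoxb13, which acts in prostate and tail, went from 2464 to 2715 bp. Hoxc13, a hair and nail gene, went from 3106 to 3322 bp (32.1% and 34.3%), the lowest share of any member in both libraries, and Hoxd13, which patterns digits, from 2106 to 2452 bp (39.2% and 45.6%).

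Steps of 5 kb along the clusters showed the same spread of gains. Of 101 bins, 93 held a peak in either library, 71 had more covered in cKO and 19 had fewer, where 33% of all such 5 kb bins of the genome had more and 65.6% had fewer. The genome bins were not matched for control coverage. Among gene windows outside the Hox family, keeping those covered by at least 50% gave 53.2% with more, against 30.4% of all gene windows. A further 8 bins were empty in both libraries, and 9 were covered by at least 95% in both. The largest gain was at Hoxb9, 90 to 95 kb from the anterior end of HoxB (chr11:96273255-96278254), from 2459 to 4467 bp. In HoxC the bin at 75 to 80 kb (chr15:102956857-102961856), beside Hoxc11, went from 2449 to 4305 bp, and the bin at 15 to 20 kb (chr15:103016857-103021856), which touches Hoxc4 and Hoxc5, from 2065 to 3715 bp. The largest falls were smaller: 302 bp within Hoxd3 (from 3449 to 3147 bp) and 287 bp at Hoxb6 and Hoxb7 (from 4673 to 4386 bp).

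**Figure D3:**
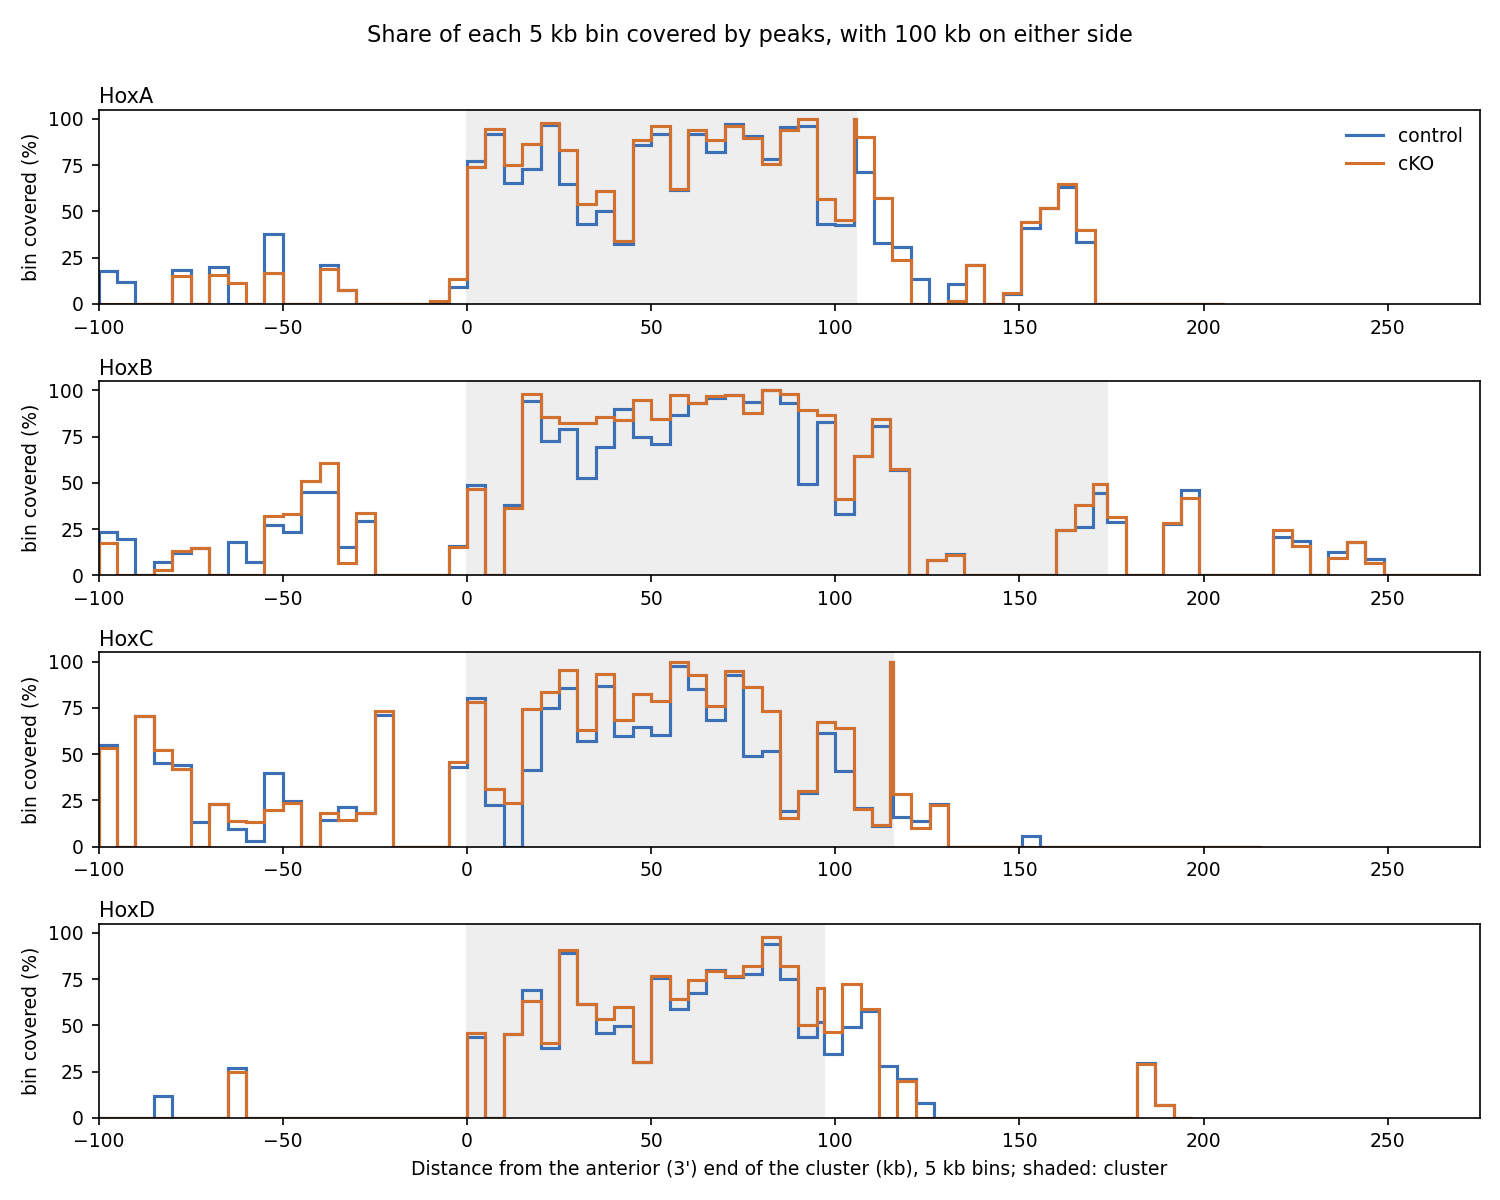
Share of each 5 kb bin inside peaks, in percent, for the control (blue) and cKO (orange) libraries, against the distance in kb from the anterior end of each cluster; the cluster is shaded and 100 kb are shown on either side. Within the shading 71 of 93 bins with a peak are higher in cKO, and outside it the lines cross in both directions.

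Most of the gain was at peaks that both libraries shared. Of the 33113 bp inside cKO peaks alone, 21162 bp lay at the edges of peaks that overlapped a control peak, 5643 bp in gaps between control peaks that 1 cKO peak spanned, and 6308 bp in cKO peaks without a counterpart. Only 4472 bp lay inside control peaks alone, 3456 bp of it at edges. In base pairs, sequence added at edges in cKO thus outweighed sequence lost there.

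Taking each control peak with 500 bp on both sides gave the same count by width. Among Hox control peaks of 2000 bp or more, 51 of 63 had more sequence covered in cKO, with a median difference of 176 bp, where 38.2% of 8477 such peaks elsewhere had more and the median difference was -47 bp. Among Hox peaks under 1000 bp, 31 of 36 had more, against 29.1% elsewhere. The widest class, 4000 bp or more, differed least, with 13 of 19 against 43.1%. The stretches of close neighbours overlap, so the same bases can count for more than 1 peak and these peaks are not independent. Among the 129 Hox control peaks, 23 gaps were under 200 bp and 26 were from 200 to under 500 bp. Elsewhere 2470 and 2431 gaps were that short, in a whole list of 77529 peaks. The shares were not matched for such neighbours.

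Gaps were filled mainly in 1 direction, in the cKO library. Of 99 gaps under 2000 bp between neighbouring control peaks in the clusters, 23 were spanned by 1 cKO peak (23.2%, 15.3 to 32.8%), against 6.2% of 14691 such gaps elsewhere. Of 93 gaps between cKO peaks, 4 were spanned by 1 control peak (4.30%, 1.18 to 10.7%), against 10.4% of 9916. The difference was largest in the shortest gaps, under 200 bp, where 16 of 23 control gaps were spanned in the clusters (69.6%, 47.1 to 86.8%), against 26.0% of 2470 elsewhere. In the other direction 4 of 22 such gaps were spanned (18.2%), against 41.4% elsewhere. The gaps elsewhere were not matched for the width or strength of the peaks beside them, or for local coverage. The filled gaps numbered 9 in HoxC, 7 in HoxB, 4 in HoxA and 3 in HoxD. The longest, 1057 bp, lay within Hoxb3, and one of 112 bp lay in the window of Hoxc11.

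**Figure D4:**
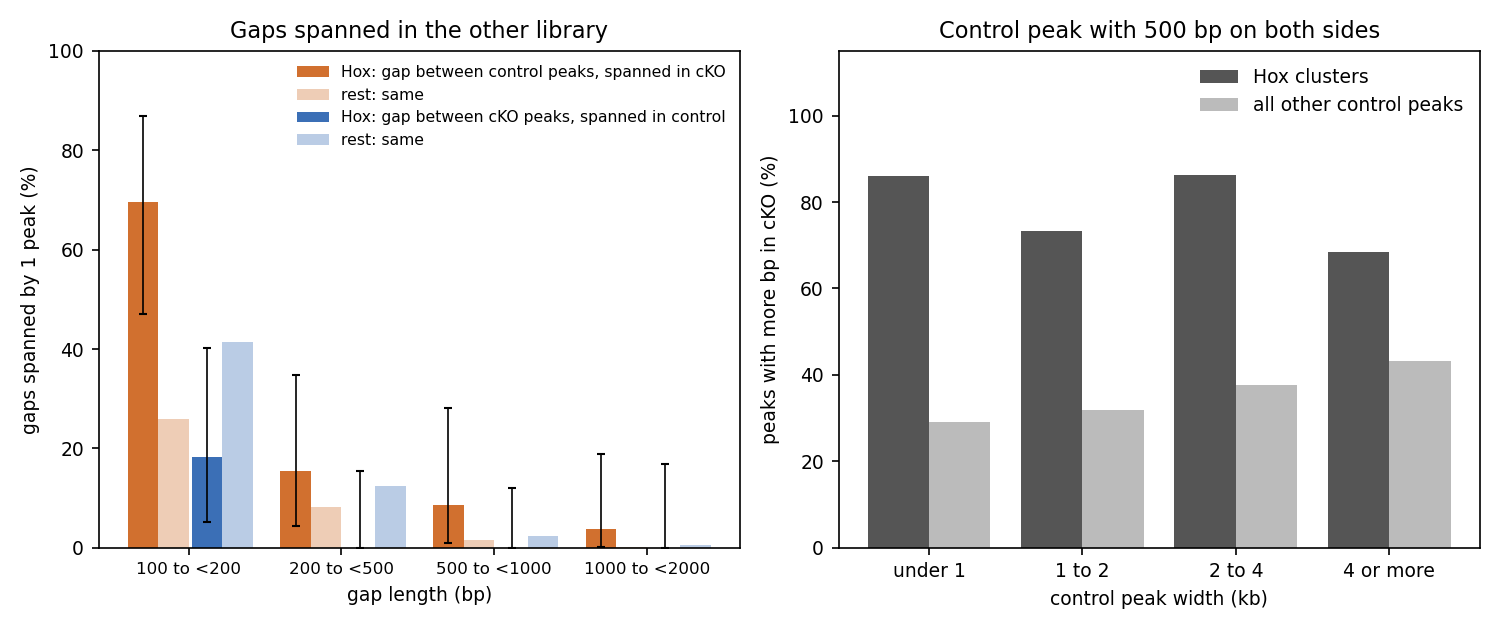
Left, share of gaps between neighbouring peaks of one library that a single peak of the other spans, by gap length, in the Hox clusters (dark bars, with 95% Clopper-Pearson intervals) and elsewhere (pale bars). Right, share of control peaks, taken with 500 bp on both sides, that had more sequence covered in cKO, by width. The Hox share is above the rest in each of the 4 width classes, where stretches of close neighbours overlap.

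Few Hox peaks lacked a counterpart. Of the 129 control peaks, 128 overlapped a cKO peak (99.2%, 95.8 to 100%), and 81.7% of control peaks of the same strength did so over the whole list; 25.9% of all control peaks had none. The single one without lay 2.23 kb from Hoxb13 (chr11:96198366-96198871). Of the 117 cKO peaks, 109 overlapped a control peak (93.2%, 87.0 to 97.0%), against 96.2% at the same strength, and 5.92% of all cKO peaks had none. So control peaks in the clusters were found again more often than those of like p, and cKO peaks were not. Width was not matched, and a counterpart needs only 1 shared bp. The median control peak measured 1855 bp in the clusters and 838 bp over the whole list. With an overlap of 50% of both peaks the shares were 75.2% for control and 82.9% for cKO, and no share over the whole lists was taken for that overlap.

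The 8 cKO peaks without a counterpart were weak and lay mostly in HoxC. The 2 inside Hoxc4 measured 1226 bp (chr15:103019478-103020703) and 492 bp (chr15:103024194-103024685). Others in HoxC lay 1.33 kb from Hoxc6 (749 bp wide, chr15:102996446-102997194), 1.27 kb from Hoxc9 (573 bp, chr15:102985548-102986120) and 3.16 kb from Hoxc13 (806 bp, chr15:102931877-102932682). In HoxB 1 lay inside Hoxb9 (845 bp, chr11:96273942-96274786) and 1 was 3.77 kb from Hoxb13 (1109 bp, chr11:96200123-96201231), and in HoxA 1 lay inside the long span of Hoxa3 (508 bp, chr6:52194609-52195116). HoxD had none. Their percentiles by p within the cKO list ran from 0.55 to 14.6, so all 8 were near the lower end of that list.

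The flanks did not share the gain of the clusters. In the 100 kb on each side, summed over the clusters, 80 control peaks covered 91589 bp and 71 cKO peaks 87800 bp, which fell by 4.14%. Anterior flanks fell by 9.66%, from 49048 to 44312 bp, and posterior flanks rose by 2.23%, from 42541 to 43488 bp. Bins of 5 kb with a peak were split, with 19 higher and 22 lower in the anterior flanks and 15 and 16 in the posterior ones. With as many control as cKO peaks kept, the flank value was a gain of 12.8%, and within 50 kb it was a gain of 4.87%. In the 5 kb beyond the posterior end each cluster gained, by 951 bp in HoxA, 142 bp in HoxB, 625 bp in HoxC and 597 bp in HoxD. In the 5 kb beyond the anterior end the differences were 218, -20, 130 and 0 bp in the same order.

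Single flanks differed in size and sign. The anterior flank of HoxA went from 7156 to 5031 bp and that of HoxB from 15179 to 14002 bp, and the anterior flank of HoxC from 24796 to 24040 bp. The posterior flank of HoxA, which holds Evx1 and the long noncoding RNA gene Hottip, went from 18782 to 20023 bp. Hottip, transcribed beyond Hoxa13 and known to act on the posterior HoxA genes, was covered by 56.9% in control and 76.4% in cKO. Evx1, a homeobox gene next to HoxA, was covered by 94.3% and 96.8%, and Evx2, its relative next to HoxD, by 53.9% and 67.7%. Of these 3 genes, Hottip and Evx2 lie nearest to a cluster and had the larger gains, but Evx1, at 94.3% in control, had the least left to gain. The part of distance and of starting coverage was not tested.

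Of the flank peaks, 64 of 80 control peaks (80%, 69.6 to 88.1%) and 64 of 71 cKO peaks (90.1%, 80.7 to 95.9%) had a counterpart. Both shares were near those of the whole lists, 74.1% and 94.1%. Among those without, 3 control peaks and 1 cKO peak lay nearest to Skap1 beside HoxB, 2 control peaks to Skap2 beside HoxA, and 2 control peaks to Smug1 beside HoxC. Beside HoxD, 2 control peaks were nearest to Evx2 and 1 cKO peak lay inside it (chr2:74660390-74661444), and 1 control peak lay inside Mtx2. The posterior HoxA flank had 2 cKO peaks nearest to Hoxa13, at 3.08 and 7.75 kb, and 1 control peak at 15.2 kb. Beside HoxD, 1 cKO peak lay 1.47 kb from Hoxd13.

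Set beside other densely covered regions, the Hox clusters kept or raised their place. In fixed windows of 100 kb the window from Hoxa3 to Hoxa13 ranked 1 of all windows in both libraries, with 57.8% and 60.0% covered. The HoxC window from Hoxc13 to Hoxc6 went from rank 8 to 3 (46.6% and 54.8%), and the HoxB windows from rank 6 to 4 (49.0% and 54.2%) and from 13 to 6 (42.3% and 46.2%). Outside the clusters, 35.6% of the 73 windows with at least 30% control coverage had more in cKO, and their covered sequence fell by 9.05%. The gain of dense sequence was not found in the Hox clusters alone: 5 of those 73 windows, among them those of Gse1, Nfic and Ptbp1, gained at least 9.87%. That value is the gain over the cluster extents and not over fixed windows. Among Hox windows with at least 30% control coverage, it was reached by the HoxC windows (46.6% to 54.8% and 31.8% to 35.8%). The HoxB window at 49.0% and 54.2% also reached it. The HoxB window at 42.3% and 46.2% did not, nor did any HoxA or HoxD window. The window holding Hoxb13 fell from 11.34% to 10.75%.

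**Figure D5:**
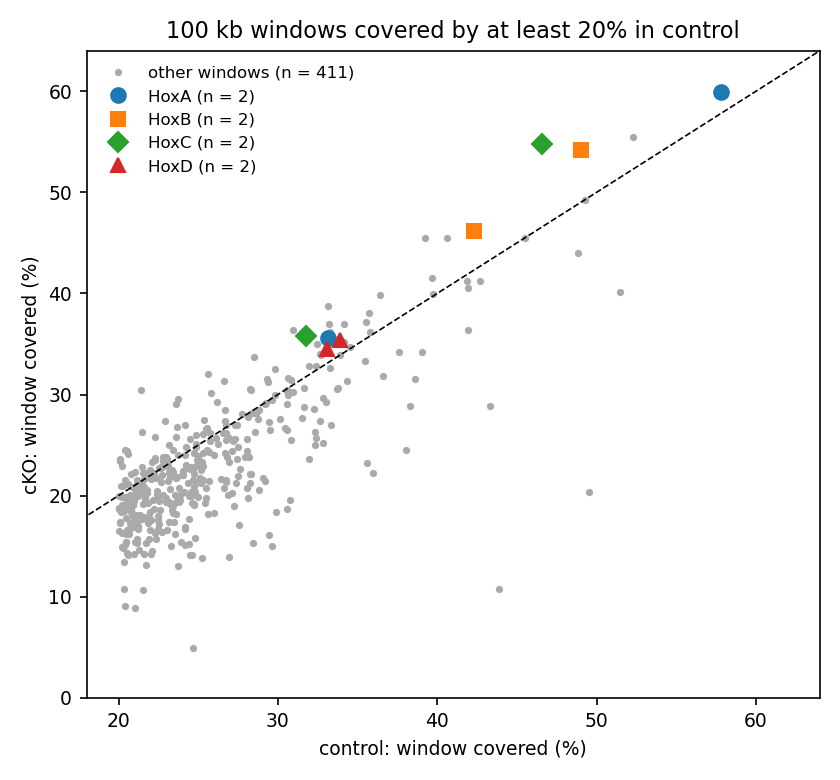
Share of fixed 100 kb windows inside peaks, in percent, in control (x axis) and cKO (y axis), for windows covered by at least 20% in control; coloured symbols are windows overlapping a Hox cluster, grey points the 411 others, and the dashed line marks equal values. The Hox windows lie above the line, with the HoxA window at 57.8% and 60.0% furthest to the right, and most grey points lie below it.

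Podocyte genes moved the other way in the same libraries. The window of Wt1 fell from rank 4, with 49.5% covered, to 20.4%, and that of Podxl from 43.9% to 10.7%. Over the 3 podocyte markers Nphs1, Podxl and Wt1 the covered sequence fell by 71.1%, and each of the 3 kept a gene-end peak in cKO. Their part in the Hox values was not tested. In a mixed population, fewer cells of a type and less open chromatin per cell cannot be told apart.

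The sorted cells were checked by peaks at gene ends, which mark an open gene and not its expression. Over all protein-coding genes, 67.6% had such a peak in control and 66.2% in cKO. Of 6 markers of the Wnt4 lineage and early nephron, 5 had one in both libraries and Cdh6 had none. All 4 markers of the nephron progenitor had one in both. Slc12a1, Hnf4a and Umod, markers of mature tubule, had none, and 2 of 5 tubule markers did. All 4 markers of interstitium, of ureteric bud and of endothelium had one in both libraries, as did 2 of 4 immune markers in control and 1 in cKO, 2 of 3 erythroid markers in both, and 2 of 3 neural markers in control and 3 in cKO. As markers of interstitium, ureteric bud and endothelium all had such a peak, the check did not set the sorted lineage apart from these. From control to cKO, covered sequence changed by -18.9% over the markers of the Wnt4 lineage and early nephron, with 0 of 6 higher. The change was -22.3% over endothelium, -10.3% over ureteric bud, -12.5% over tubule and -30.6% over immune markers. It was -3.20% over erythroid and -1.25% over interstitial markers. Coverage was 8.41% higher over neural markers, and 1.84% higher over those of the nephron progenitor, where Six2 alone of the 4 was higher. The part of these shifts in the Hox values was not tested.

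MicroRNA genes lie between the Hox genes and repress Hox messenger RNAs. The table held 6 in the clusters, and the mature strands are shown to set apart the seed families, with the seed (bases 2 to 8) in capitals.
mmu-miR-10a-5p: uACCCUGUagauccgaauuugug
mmu-miR-10b-5p: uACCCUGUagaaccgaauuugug
mmu-miR-196a-5p: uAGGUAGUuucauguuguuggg
mmu-miR-196b-5p: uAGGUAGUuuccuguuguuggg
mmu-miR-615-3p: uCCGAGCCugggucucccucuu

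The miR-10 pair shares 1 seed and the miR-196 pair another. Mir10a, between Hoxb4 and Hoxb5 (chr11:96317165-96317274), lay 248 bp outside the nearest control peak and wholly inside a cKO peak (chr11:96317132-96321346). Mir10b, within the Hoxd4 span, lay outside peaks in both, 595 bp from the nearest in control and 218 bp in cKO. Mir196a-1, in HoxB on the posterior side of Hoxb9, was 530 and 199 bp away. Mir196a-2, Mir196b and Mir615 lay wholly inside peaks in both libraries. For all 3 genes outside control peaks, the nearest edge was thus closer in cKO.

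More long noncoding RNA genes of the clusters gained than lost. All 25 had a peak at an end in both libraries, where 41.8% of 12702 such genes elsewhere had one in control and 37.5% in cKO. Of the 23 with a control peak inside the gene, 13 had more covered in cKO, 5 had fewer and 5 the same, against 30.4% with more and 66% with fewer of 6417 elsewhere, which were not matched for coverage. Hotairm1, at the anterior end of HoxA, was covered by 96.0% and 100%, and Hoxb3os by 81.8% and 90.0%. Among the 5 that fell, LOC115490410 beside Hoxa11 went from 100% to 89.8% and Hoxb5os from 93.7% to 92.9%. Hoxa11os, antisense to Hoxa11, was wholly covered in both. Hotair, which lies between Hoxc11 and Hoxc12, had 0 bp of its span inside peaks in either library, although a peak lay within 1000 bp of an end.

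Genes that act with or upstream of the Hox proteins were read against the 30.4% of protein-coding gene windows that had more in cKO; in lists of this size the shares were near that level. Of 8 cofactor genes, TALE homeodomain partners of Hox proteins, 2 had more covered in cKO and 6 less, and together they fell by 10.6%. Pknox2 went from 30414 to 22237 bp and Meis2 from 30279 to 27920 bp, whereas Meis1 went from 15371 to 17651 bp. Among 17 Polycomb and CTCF genes, which hold Hox genes silent or bound their domains, 4 had more and 13 less. Jarid2 went from 15488 to 9065 bp and Cbx8 from 4624 to 5233 bp.

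Of 10 genes that open or restrict Hox clusters, 2 had more, 7 less and 1, Cdx4, had no peak. Cdx1, a caudal homeobox gene, went from 4762 to 2394 bp and Rarb, a retinoic acid receptor gene, from 24949 to 18390 bp, while the receptor gene Rara went from 31303 to 32273 bp. Of 9 kidney partners and targets of the Hox11 proteins, 3 had more and 6 less. Six2, the nephron progenitor factor they activate, went from 8394 to 9922 bp, Wnt5a from 7064 to 7385 bp, Pax2 from 26230 to 22645 bp and Sall1 from 9311 to 7742 bp.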

How the data were processed

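ATAC-seq was deposited as 1 peak list per library, on mm10, 1 from control and 1 from cKO kidneys. Per the submitters' processing notes the authors used Trim Galore, SAMtools and Genrich; the aligner, versions and settings are not stated there. Each peak has the authors' score, a whole number; the deposited signal, an area under the caller's curve, is not scaled between libraries; and the deposited −log10 p and −log10 q values are the caller's; they depend on depth and background, so p and area ranked peaks only within a list. No 2 peaks of the control list lay closer than 101 bp.

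Coordinates are 1-based. Gene positions are those of RefSeq on GRCm38.p6, and strands, promoters and microRNAs from its sequence tables. Cluster ends are the outer ends of all 39 Hox genes; 1 gene of the family and 2 genes of the lists are not reported here. A peak touching a cluster and its flank was counted in both, and base pairs were clipped to each region. Peaks sharing at least 1 bp were counterparts, and shares at the same strength use 10 classes by p. Genes with full values were the up to 3 members per cluster with the largest gain and fall, and all members were given. Also named were unmatched peaks, microRNA genes and list genes with large differences. The members and lists were chosen with earlier results of these data known. Functions were tested on simulated data. Python 3.11.15, pandas 2.3.3, NumPy 2.4.6, SciPy 1.17.1 and matplotlib 3.10.9 were used.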

Additional observations from a re-analysis of the deposited data

How the results depend on the processing

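Of 88 values recomputed under other settings, 58 moved by less than counting error or 1.5 times, 22 moved further and 8 changed direction. The gain in cluster base pairs stayed positive in each setting run. Its sign was fixed in advance where only the control list was shortened, and, as each cluster gained, where a cluster was left out. The gain ran from 7.29% without HoxC to 16.3% with only as many control peaks kept, by p, as the cKO list has. With that number kept the cluster peak count changed by 10.4%, the median width by -2.70%, the flank peak count by 18.3% and flank base pairs by 12.8%; the shares with a counterpart were 100% for control and 82.9% for cKO cluster peaks, and the gains of paralogs 5 to 8 and 9 to 13 were 10.2% and 14.3%. Kept by area instead, a setting chosen after seeing the data, the values in the same order were 4.46%, 1.46%, 14.5%, 6.64%, 100%, 86.3%, 6.01% and 11.7%, and the flank share was 88.7%. With the more significant 50% of each list, the median width changed by 10%, the cKO share was 98.8%, flank base pairs changed by -6.50%, the flank share was 90% and the gain of paralogs 5 to 8 was 10.6%. Merging peaks closer than 500 bp gave 41.2% for the median width and 1.36% for paralogs 5 to 8. An overlap of 50% of both peaks gave shares of 75.2% and 82.9%. Flanks of 50 kb gave 4.87% for flank base pairs. Territories between 3′ ends, also chosen after seeing the data as were the clusters left out in turn, gave 6.35% for paralogs 5 to 8, and without HoxB the control share was 100%. The cause of these shifts was not tested. Depth is unknown, and a gap between peaks is no measure of closed chromatin. Lists of equal length even out counts by construction. No paired analysis was possible because each genotype had a single library and no test was made.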
